A study of Ambystoma mexicanum with 12 samples.

Results

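The 10-day blastema was compared with the limb tissue taken at amputation from 5 juvenile axolotls (Ambystoma mexicanum), across all genes of the count table. The comparison used 10 of the 12 libraries of the series, 5 of blastema and 5 of juvenile limb, which were chosen by their labels and which carry the replicate numbers 2, 3, 5, 6 and 8 in both groups. Both tissues came from 5 juveniles by the methods, and libraries that share a number in their titles were taken as 1 animal, so that animal 2 stands for blastema 2 and juvenile limb 2. No source used here states that a number marks an animal. The animals were 8 months old, came from a captive colony founded with wild axolotls, and were sedated with benzocaine. No other treatment or transgene is given for either group, and the sex of the animals is not given in the sources used here. The juvenile limb libraries are labelled posterior leg, whereas the methods speak of inferior limbs and the results of the right forelimb, so the limb was not settled by the sources.

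A blastema is the bud of undifferentiated cells that gathers under a wound epidermis on the stump of an amputated salamander limb and from which the lost parts grow back. It receives cells from the connective tissue, muscle and nerve sheath of the stump, and in its first days it is entered by immune cells that clear debris. The removed limb tissue, in contrast, held differentiated muscle, skin, skeleton, nerve and blood vessels. In such bulk samples, fewer cells of a type and less RNA per cell cannot be told apart.

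Counts on genes totalled 13392223 to 20663627 in the blastemas and 12975883 to 18575093 in the limbs. Blastema libraries held counts for fewer genes (25733 to 32315 against 33236 to 46501), and each library's own 100 highest genes took a larger share of its counts (46.3% to 57.3% against 37.3% to 45.5%). Neither range overlapped, and each gave an exact two-sided permutation p = 0.00794, the smallest that 5 against 5 libraries allow. Here and below, this test shuffles all 10 libraries as unpaired, so its p holds only if same-numbered libraries are independent. With those libraries kept as 5 pairs, an exact sign-flip permutation p cannot fall below 0.0625. Levels are CPM, counts scaled to a common library size after TMM normalization, and per-library values always follow the order of animals 2, 3, 5, 6 and 8. Calls of higher or lower needed a change of more than 1 log2 unit together with an adjusted p under 0.05, from the quasi-likelihood test of edgeR after Benjamini-Hochberg correction across all tested genes, and each adjusted p below is from that test. Where a group had no count of a gene, the fold is a bound against a group total of 3 counts (0.0414 CPM for blastema, 0.0336 CPM for limb), and such bounds cover counting error only. If every library of the other group holds a count, the exact permutation p takes its smallest value by construction. For IL11, CPA3 and IFITM5.1, which were added after their values were seen, that p is unadjusted and tests nothing further.

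The labels were first set against marker genes. Summed over 5 skeletal muscle markers, the limbs held 2709 to 15709 CPM and the blastemas 0.595 to 17.9 CPM. A set of 5 blastema mesenchyme markers ran the other way, at 51.3 to 409 CPM in the blastemas and 6.75 to 26.5 CPM in the limbs. Both sums differed between the groups in the direction of the labels, and blastema 2 was the highest for the mesenchyme markers. Names such as CKM of the muscle markers and PROD1 of the mesenchyme markers came from genes the study selected on these same libraries. The separation is therefore not an independent check of the labels.

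Genes of limb identity were read in every library. TBX5, a transcription factor of the forelimb in mice and chicks, was at 13.9, 1.12, 0.544, 1.71 and 6.54 CPM in the blastemas and at 3.47, 4.15, 4.76, 4.80 and 9.07 CPM in the limbs (log2 fold change −0.15, SE 0.71, edgeR adjusted p = 0.922). TBX4, its hindlimb counterpart, had no count in any juvenile limb and 28 counts over the 5 blastemas, where it stood at 0.588, 0.269, 0.0778, 0.967 and 0.147 CPM. It was at least 12.2-fold higher in blastema by the bound (exact permutation p = 0.00794), at a level of a few counts per library. The limb libraries thus held TBX5 and no count of TBX4, while all 5 blastemas held both genes, and these levels did not settle which limb was taken. PROD1, which marks proximal position in newt and axolotl limbs, stood at 50.5, 13.2, 17.7, 10.4 and 44.2 CPM in blastema and 5.72, 17.1, 2.65, 4.67 and 1.93 CPM in limb. The groups overlapped through juvenile limb 3, and the difference was not called (2.07, SE 0.63, edgeR adjusted p = 0.0629, from 3.63e-10 to 0.208 over the alternatives).

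Across the genome the change was lopsided. Of 19961 genes tested, 1488 (7.45%) were called, 371 (1.86%) higher and 1117 (5.6%) lower in blastema. The lower genes also changed further, with a median log2 fold change of −3.49 against 1.72 for the higher genes. Of the lower genes 502 (44.9%) were past 16-fold, compared with 17 (4.58%) of the higher ones. For 139 of the lower genes the blastemas held no count at all, whereas no called gene was without a count in the limbs. The number of higher genes was 230 without juvenile limb 2 and 238, 234 and 235 without animals 2, 5 and 6.

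Each tested gene was then placed in a level class, from its call, its mean CPM with 0.1 CPM as the limit for off and 1 CPM as the limit for on, and its 95% interval. Lost genes, called lower and off in blastema while on in the limbs, numbered 298, with a median limb level of 4.46 CPM and a highest of 447 CPM. Another 819 were lowered (median log2 fold change −2.48), 367 were raised (1.72), and only 4 were new, that is off in the limbs and on in blastema. Steady genes, uncalled and with an interval within 1 log2 unit on both sides of 0, numbered 7006 (35.1%), and 11467 genes (57.4%) remained unresolved. The limit for off passed between genes of almost equal level, since IP6K3.2 (0.0933 CPM in blastema) and AMEX60DD049614 (0.0940 CPM) were classed as lost while SMPD3 (0.102 CPM) and CAMK2A (0.103 CPM) were classed as lowered. Of the 298 lost genes 170 had a gene name, and 35 belonged to the tissue lists used here. Without blastema 2 there were 450 lost genes. With library totals that leave out the 100 highest genes over all libraries, 231 genes were lost and none was new. Such totals change the scale of CPM while the limits for off and on stay fixed.

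The classes took very different shares of the counts on tested genes. Because the classes were set on these same libraries, the direction of these shares follows from their definition. The shares only describe how large the classes were. Lowered genes held 12.9%, 6.49%, 15.0%, 8.75% and 17.5% of these counts in the 5 limbs and 0.788%, 1.14%, 1.07%, 1.02% and 1.32% in the blastemas. Lost genes held 0.286% to 1.12% of limb counts and at most 0.000979% of blastema counts. The blastemas were close to each other in these shares while the limbs were spread, with animals 5 and 8 the highest and animal 3 the lowest. Raised genes held 13.9%, 11.7%, 12.2%, 14.5% and 8.30% in blastema and 3.43% to 5.46% in limb. The 5 raised genes of highest level, none of them with a gene name, took most of that share, and without them the raised genes held 2.89% to 4.96% in blastema and 1.23% to 1.92% in limb. Steady genes held 20.3% to 29.5% in blastema and 24.4% to 32.6% in limb, ranges that overlap.

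**Figure D1:**
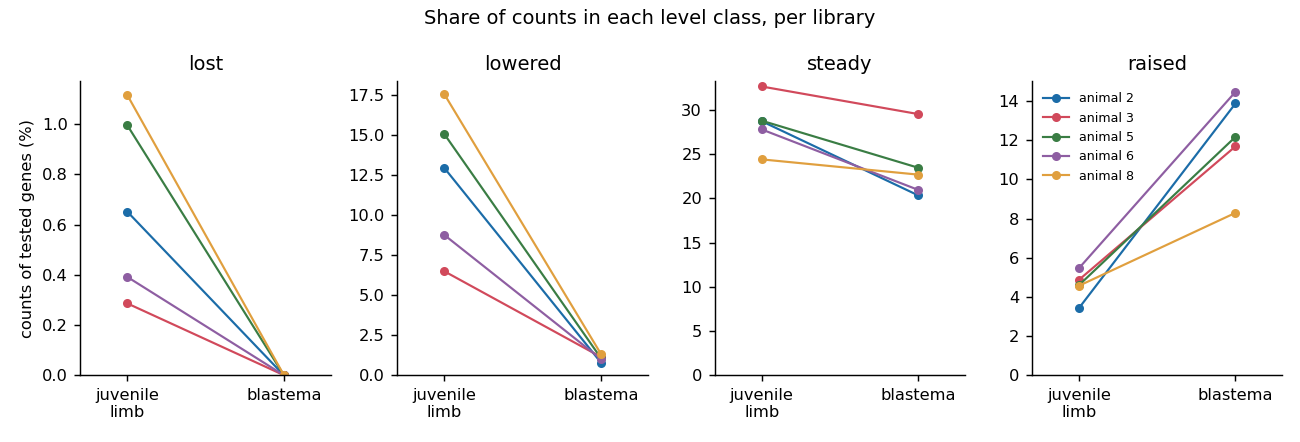
Share of each library's counts on tested genes (percent) taken by the lost, lowered, raised and steady genes, with 1 point per library and a line joining the blastema and limb of each animal. Lowered genes fall from 6.49% to 17.5% of limb counts to 0.788% to 1.32% in the blastemas, while the shares of steady genes overlap. The classes were set on these same libraries, so these directions follow from their definition.

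**Figure D2:**
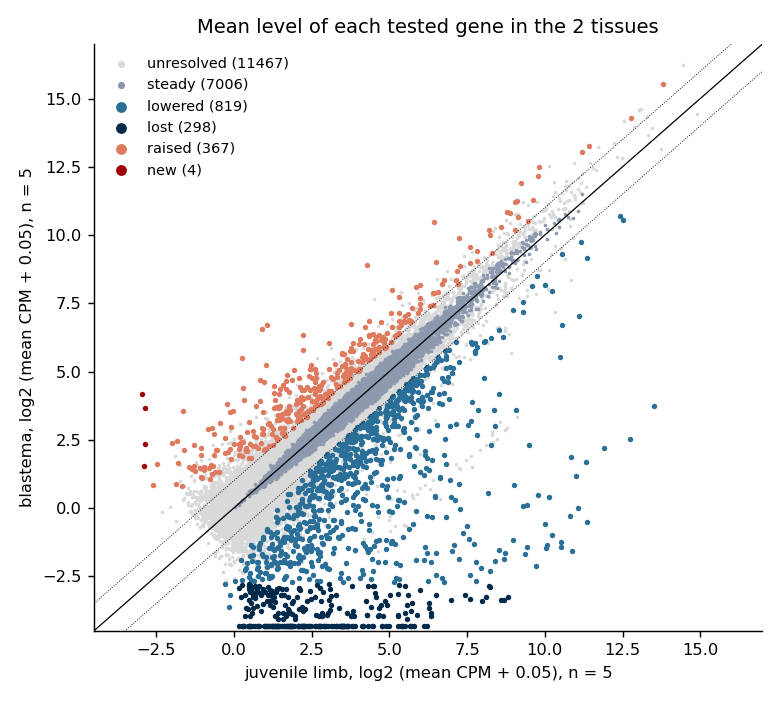
Mean level, as log2 of mean CPM + 0.05, in the 5 juvenile limbs (x) and the 5 blastemas (y) of each of the 19961 genes tested, coloured by level class, with a line at equal levels and dotted lines at 1 log2 unit. The 298 lost genes lie below 0.1 CPM in blastema at limb levels of up to 447 CPM, and only 4 genes lie in the opposite corner.

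Most gene names came from a supporting table that the study had chosen on these same libraries, and of the 826 tested genes named there 131 were called higher, 506 lower and none was steady. Counts over lists of such names are therefore not independent evidence of their direction. The background over all tested genes was 1.86% higher and 5.6% lower. Over the tested genes named by that table it was 15.9% higher and 61.3% lower, the nearer background for such lists. All tested members of the sarcomere, muscle fuel and neuromuscular junction lists below are named by that table. The same holds for the glia and nerve, bone and fat, and lymphoid and mast cell lists. A co-expression table, given here only in its first rows by identifier, named genes without regard to this contrast. Of its 398 tested genes 4 (1.01%) were called higher, 20 (5.03%) lower and 179 (45.0%) were steady, with a median log2 fold change of −0.03 against −0.02 over all genes tested.

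The contractile apparatus of muscle was the program that fell furthest. All 40 tested members of the list of sarcomere and muscle cytoskeleton genes were called lower, 12 of them lost, with a median log2 fold change of −10.54 (−10.40 with the 2 genes without blastema counts at their bounds). Summed over all 44 listed genes, tested or not, the level was 27426, 12171, 42364, 16434 and 57164 CPM in the limbs and 75.3 to 340 CPM in the blastemas. MYH2.1, a fast myosin heavy chain, was read at 6816, 3810, 10069, 3777 and 9498 CPM in limb and at 1.37, 1.08, 2.18, 1.34 and 22.3 CPM in blastema. Blastema 8 stood apart, and the log2 fold change of −10.23 (SE 1.19, edgeR adjusted p = 0.000232) became −12.15 without it and −11.33 with the replicate block. TNNC1, the calcium-binding troponin of slow and cardiac muscle, had 34410 counts in the limbs (94.4 to 842 CPM) and 4 in the blastemas. Its log2 fold change was −12.72 (SE 0.91, edgeR adjusted p = 8.86e-06) and −13.33 without animal 3. NEB, which sets the length of the thin filament, had 4378 counts in the limbs, at 56.0, 23.7, 65, 26.3 and 85.1 CPM, and none in any blastema, so that it was at least 1236-fold lower. ACTC1.4, an alpha-actin, fell from 823 to 5510 CPM in the limbs to 0.156 to 1.86 CPM in the blastemas (−12.03, SE 0.93, edgeR adjusted p = 1.08e-05, −12.79 without blastema 2, −12.92 without animal 2 and −11.37 without animal 8). MYBPC1, a thick-filament binding protein, left 4 counts in the blastemas against 32888 in the limbs (−12.61, SE 0.74, edgeR adjusted p = 4.31e-06). No blastema reached the level of any limb for these genes.

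Membrane excitation and calcium release fell with the sarcomere. Of 17 tested members 15 were called lower, 9 of them lost, with a median of −8.52 (−8.08 once 4 genes were set to their bounds). CASQ1, the calcium store protein of the fast-fibre sarcoplasmic reticulum, stood at 257, 195, 617, 262 and 905 CPM in the limbs, and the blastemas held 4 counts of it in all. The log2 fold change was −12.81 (SE 0.79, edgeR adjusted p = 4.31e-06) and −12.08 without animal 8. ATP2A2, a calcium pump that non-muscle cells also use, was lower in all 5 animals, but by less, and was not called. Its levels were 133, 166, 124, 112 and 136 CPM in blastema and 218, 221, 301, 137 and 266 CPM in limb, groups that overlap (−0.77, SE 0.23, edgeR adjusted p = 0.0615, from 0.0206 to 0.227 over the alternatives).

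Muscle fuel use fell as a whole list too, by less. All 17 tested members were called lower, at a median log2 fold change of −3.78. CKM, the creatine kinase of muscle, was at 1129, 650, 2614, 1111 and 3869 CPM in limb and at 0.0744 to 0.514 CPM in blastema (−12.70, SE 0.82, edgeR adjusted p = 4.62e-06). AMPD1, the AMP deaminase of muscle, had 3239 counts in the limbs and 1 in the blastemas, a scaled ratio of 2630 with a 95% counting interval from 472 to 103905. Its fitted log2 fold change was −10.81, with −12.33 without blastema 5, which held the 1 count, −12.26 without animal 5 and −10.13 without animal 8. ALDOA, a glycolytic aldolase used by most cells, stood at 991, 999, 978, 655 and 646 CPM in blastema and 1662, 1285, 2868, 1324 and 4245 CPM in limb. The groups did not overlap, and the call was near its threshold (−1.42, SE 0.37, edgeR adjusted p = 0.0356). It was lost with the replicate block (edgeR adjusted p = 0.0971) and in 14 of 23 alternatives in all, among them each fit without 1 blastema, those without juvenile limb 2, 5 or 8 and those without animal 2, 5, 6 or 8 (edgeR adjusted p up to 0.133).

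A pair of ribosomal protein genes moved with the muscle genes. RPL3L, the variant that striated muscle uses in mammals, had 617 counts over the limbs, at 6.80, 2.63, 9.31, 5.42 and 12.5 CPM, and none in blastema, at least 177-fold lower. The gene the table names RPL3 had 4427 counts in the limbs (42.0, 19.9, 79.3, 25.5 and 99.5 CPM) and 3 in the blastemas, a scaled ratio of 1198 with a 95% counting interval from 410 to 5812. Its fitted log2 fold change was −10.09, with −11.10 without blastema 6, −11.28 without animal 6 and −9.44 without animal 8. In both, animals 5 and 8 were the highest of the limbs. Where near-identical copies exist, the counting settings could have divided their reads, since how reads with several matches were treated is not stated.

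Transcription factors of the muscle lineage were lost as well. MYF6.1, a myogenic factor of fibres, had 387 counts in the limbs (4.55, 1.56, 8.02, 1.74 and 7.26 CPM) and none in blastema, at least 112-fold lower. TCF15.1, a factor of the somites that form trunk and limb muscle in mice, had 328 and none, at least 91.9-fold lower.

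The neuromuscular junction list had 4 of 5 members called lower, 3 of them lost, with a median of −8.30 (−5.96 once 3 genes were set to their bounds). CHRNG, the fetal subunit of the muscle acetylcholine receptor, stood at 7.78, 4.73, 14.1, 6.60 and 16.4 CPM in the limbs and had no count in blastema, at least 240-fold lower. ART1, a muscle surface ADP-ribosyltransferase, was at 29.8, 9.96, 45.7, 12.3 and 51.8 CPM against no count, at least 722-fold lower. ACHE, the enzyme that clears acetylcholine and that is also made outside the junction, was the uncalled member. It was at 0.881, 2.69, 4.43, 2.23 and 0.0735 CPM in blastema and 11.8, 4.06, 8.22, 5.73 and 13.2 CPM in limb, with an overlap between blastema 5 and juvenile limb 3 (−2.05, SE 0.65, edgeR adjusted p = 0.0764, from 1.89e-05 to 0.214 over the alternatives).

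Myelin genes of Schwann cells were lower in the blastemas. MBP, which compacts myelin, was at 38.6, 17.8, 46.3, 25.2 and 41.5 CPM in limb and within 7.25 to 9.33 CPM in every blastema (−2.09, SE 0.26, edgeR adjusted p = 0.000362). UGT8, which makes myelin galactolipids, was lost (−5.38, SE 0.72, edgeR adjusted p = 0.000551, and −6.46 without blastema 3). In neither gene did the groups overlap. PRPH.1, an intermediate filament of peripheral neurons, was at 8.32, 31.2, 24.3, 39.0 and 178 CPM in blastema and 272, 89.0, 106, 344 and 309 CPM in limb. Blastema 8 lay among the limbs, and the difference was not called without the replicate block but was with it (−1.99, SE 0.71, edgeR adjusted p = 0.11 and 0.0393, from 3.34e-08 to 0.298 over the alternatives). Of the 5 tested members of the glia and nerve list 3 were called lower, and the count was 5 with the block and without animal 8, and 6 without blastema 8, which adds a member to the fit.

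Bone and fat genes were lower in all 6 tested members, at a median of −3.25. BGLAP, osteocalcin of bone-forming cells, stood at 3.72, 8.17, 9.58, 9.53 and 2.89 CPM in the limbs and had no blastema count, at least 164-fold lower. IFITM5.1, a further osteoblast gene below the filter, had 130 counts in the limbs and none in blastema, at least 34.7-fold lower (exact permutation p = 0.00794). SMPD3, a sphingomyelinase needed for bone mineral in mice, had 8 counts in the blastemas and 319 in the limbs (−4.97, SE 0.67, edgeR adjusted p = 0.00062, and −5.67 without blastema 6). ADIPOQ, the fat cell hormone adiponectin, was at 36.2, 23.4, 81.2, 30.7 and 103 CPM in limb and 2.11 to 3.92 CPM in blastema (−4.27, SE 0.45, edgeR adjusted p = 0.00011). PNPLA2, the lipase that opens stored fat, fell by less, from 35.3 to 62.4 CPM to 12.4 to 25 CPM (−1.29, SE 0.24, edgeR adjusted p = 0.00479). VDR, the vitamin D receptor, stood at 22.6, 50.7, 36.1, 44.7 and 76.3 CPM in blastema and 81.0 to 112 CPM in limb. Its call (−1.05, SE 0.28, edgeR adjusted p = 0.039) was lost in 16 of 23 alternatives, among them the replicate block (0.0502) and the fits without any 1 blastema other than 8, any 1 limb or any 1 animal other than 8 (edgeR adjusted p up to 0.125).

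The skin program was lower, to a different degree in each animal. Of 20 tested genes for keratins, mucus and ion uptake 11 were called lower and none higher, at a median of −1.92. The count of lower genes was 16 with the block and 17 without blastema 8, and 7 without animal 5 or 6. All 11 are among the 19 that the selected table names, while the 1 named by the unselected table was not called (1.06). Without juvenile limb 3 or animal 3, and with DESeq2 and the block, 1 member was called higher. KRT12.1, a keratin, was at 1105, 850, 2199, 2037 and 2159 CPM in the blastemas and 7644, 2585, 4354, 7056 and 5500 CPM in the limbs (−1.70, SE 0.40, edgeR adjusted p = 0.0195). Its call was lost without juvenile limb 2 and without animal 2, 5, 6 or 8 (edgeR adjusted p from 0.0513 to 0.0861). KRT12.7, another keratin, was at 786 to 1984 CPM in blastema and 2682 to 8495 CPM in limb (−1.96, SE 0.42, edgeR adjusted p = 0.0122) and lost its call without animal 2 or 6 (0.0533 and 0.0518). KRT12 copies resemble each other, so the split of reads between them is uncertain, while both fell.

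KRT8.1, a keratin of simple epithelia, fell further. It was at 1.47, 4.94, 5.76, 4.09 and 2.79 CPM in blastema and 251, 16.1, 37.5, 80.7 and 157 CPM in limb (−4.82, SE 0.72, edgeR adjusted p = 0.00124, and −4.05 without animal 2). KRT19.2 was at 4.36 to 18.2 CPM in blastema and 17.3 to 266 CPM in limb, with blastema 6 above juvenile limb 3 (−4.05, SE 0.80, edgeR adjusted p = 0.00743, and −3.45 with the block). The mucus genes separated the animals. FCGBP.8, which makes a mucin-binding protein, stood at 3.23, 29.3, 355, 65.9 and 271 CPM in blastema and 873, 1400, 2148, 761 and 1210 CPM in limb. No blastema reached a limb, yet blastema 2 and blastema 5 differed by far more than any limbs did, and the difference missed the threshold without the block and passed with it (−3.14, SE 0.92, edgeR adjusted p = 0.0558 and 0.0265, from 5.72e-17 to 0.143 over the alternatives). Its neighbour FCGBP.9 behaved alike (−2.49, SE 0.87, edgeR adjusted p = 0.102 without and 0.0389 with the block).

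Genes of lymphoid and mast cells were lower in 8 of 12 tested members and higher in none, at a median of −2.30. All 12 are named by the selected table, of whose 826 tested genes 61.3% were called lower at a median of −2.20. The share on this list is therefore close to that of the table it was drawn from. The count was 4 without juvenile limb 2 or 5 or animal 5 and 5 without juvenile limb 6 or 8 or animal 3 or 6. CTSS, a protease of antigen-presenting cells, is on this list but is not particular to lymphoid or mast cells. It was at 62.0, 78.5, 51.5, 133 and 38.3 CPM in the limbs and 2.25, 2.24, 1.01, 6.55 and 1.47 CPM in the blastemas (−4.74, SE 0.54, edgeR adjusted p = 0.000202, and −5.37 without blastema 6). GZMB.1, a granzyme of cytotoxic lymphocytes, was at 46.8 to 103 CPM in limb and 5.78, 9.56, 14.2, 7.81 and 29.2 CPM in blastema (−2.30, SE 0.42, edgeR adjusted p = 0.00499). CCL19.1, a chemokine that draws lymphocytes, had 288 counts in the limbs and 1 in the blastemas, a scaled ratio of 234 with a 95% counting interval from 41.6 to 9268. Its fitted log2 fold change was −7.19, with −8.71 without blastema 6, which held the 1 count, −8.50 without animal 6 and −6.56 without animal 2. CPA3, a mast cell protease, had 304 counts and none, at least 79.9-fold lower (exact permutation p = 0.00794). The groups did not overlap in any of these genes. Summed with KIT, the other mast cell marker used here, CPA3 gave 2.74 to 11.6 CPM in the blastemas and 11.0 to 28.0 CPM in the limbs. Those sums overlapped through blastema 6, and in the blastemas they were all KIT.

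The 11 immunoglobulin light chain genes on the list were all too low for the fit. IGLV.1 had 122 counts in the limbs, most of them in juvenile limb 2 (4.65, 0.893, 0.272, 0 and 0.193 CPM), and none in the blastemas, and IGLV.6 had 98 counts in the limbs and 11 in the blastemas. Both overlapped between the groups. Antiviral genes were lower in 3 of 9 tested members, at a median of −1.17, and the count was 1 without juvenile limb 2 or 8 and 0 without animal 2, 5 or 8. OAS3.1, a sensor of viral double-stranded RNA, was at 2.94, 0.898, 5.06, 1.86 and 3.53 CPM in blastema and 41.4, 2.59, 27.3, 3.49 and 14.1 CPM in limb. The groups overlapped, and the call (−2.65, SE 0.74, edgeR adjusted p = 0.0445) was lost in 12 of 23 alternatives, namely without any 1 blastema, without juvenile limb 2, 5 or 8 and without animal 2, 5, 6 or 8 (up to 0.163). RNF213.7, an interferon-induced ubiquitin ligase, fell from 2.99 to 12.9 CPM to 0.718 to 2.60 CPM (−2.12, SE 0.48, edgeR adjusted p = 0.0174, and 0.0522 to 0.0891 without juvenile limb 2 or animal 2, 5 or 8). SAMD9L (−1.24, SE 0.37, edgeR adjusted p = 0.0591, from 0.00177 to 0.214 over the alternatives) and OAS3.2 (−0.69, SE 0.37, edgeR adjusted p = 0.276, from 0.189 to 0.525) overlapped between the groups and were not called.

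Myeloid and wound genes went the other way in part, on a list that does not hold CTSS. Of 18 tested members 6 were called higher and none lower, at a median of 1.24, but none of the 9 that the unselected table names was called by edgeR or DESeq2 (2 at an unadjusted edgeR p under 0.05, median −0.04, 3 steady), and 3 were called with the block, 3 without animal 3 and 2 without animal 8. HMOX1, which breaks down heme, was at 101, 9.11, 5.68, 9.60 and 21.7 CPM in the blastemas and 2.24 to 4.11 CPM in the limbs. Every blastema was above every limb, with blastema 2 far above the others. The log2 fold change was 3.19 (SE 0.74, edgeR adjusted p = 0.0188), 1.90 without blastema 2 and 1.75 without animal 2. The call was lost with the block (2.26, edgeR adjusted p = 0.064) and without juvenile limb 2 or 5 or animal 8 (0.0543 to 0.0604). ENTPD1, a surface enzyme that degrades extracellular ATP, stood at 32.6, 17.6, 8.32, 16.5 and 7.42 CPM in blastema and 3.57 to 5.01 CPM in limb (1.90, SE 0.37, edgeR adjusted p = 0.00711), and it was called in all 23 alternatives that were run gene by gene.

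The macrophage genes that passed the test did so near its threshold. MARCO, a scavenger receptor, was at 60.8, 41.4, 28.9, 34.7 and 73.7 CPM in blastema and 33.8, 14.9, 14.1, 9.28 and 21.2 CPM in limb. The groups overlapped through juvenile limb 2, although the blastema was higher within each of the 5 animals (1.36, SE 0.36, edgeR adjusted p = 0.037, 0.00756 with the block). The call was lost in 11 of 23 alternatives, without blastema 2, 3 or 8, juvenile limb 3, 5, 6 or 8 or animal 3, 5, 6 or 8 (up to 0.116). C5AR1, the receptor for complement C5a, was at 2.46 to 5.36 CPM in blastema and 1.03 to 2.06 CPM in limb (1.33, SE 0.35, edgeR adjusted p = 0.0372). It lost its call in 13 of 23 alternatives, among them the block (0.115), blastema 3 or 8, juvenile limb 2, 3, 5 or 8 and animal 2, 3, 5 or 8 left out, and no filter on low counts (up to 0.158). CTSK, a collagen-digesting cathepsin, was at 568, 101, 68.6, 93.6 and 151 CPM against 31.8 to 92.7 CPM, overlapped and was not called (1.53, SE 0.56, edgeR adjusted p = 0.119, from 1.17e-05 to 0.462). IL1B, a cytokine of activated macrophages, overlapped fully (0.20, SE 0.42, edgeR adjusted p = 0.808, from 0.186 to 0.978). The sum of 4 macrophage markers was 634, 148, 101, 131 and 231 CPM in blastema and 54.5 to 105 CPM in limb, with an overlap at blastema 5, and CTSK alone made up most of it in every blastema. IL11, a cytokine needed for regeneration in frog tadpoles and fish, had no count in any limb and stood at 43.6, 5.97, 0.156, 10.6 and 6.24 CPM in the blastemas. It was at least 396-fold higher by the bound (exact permutation p = 0.00794), with blastema 2 holding more than the other blastemas together and blastema 5 only 2 counts.

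Extracellular matrix genes were mostly higher on the list used here. Of 21 tested matrix glycoproteins and microfibril genes 18 were called higher and none lower, at a median log2 fold change of 2.12. The count was 14 with the block and 11 without animal 3. Summed over all 23 listed genes, tested or not, the level was 2094, 1237, 487, 1525 and 738 CPM in blastema and 223 to 348 CPM in limb. All of these names came from the table the study selected, and the list does not hold every matrix gene of that table. Its members were chosen with earlier results of these data known, so the counts of higher and lower genes depend on that choice. LAMB2, a laminin described below, was left off the list and was lower. FBN2, a microfibril protein of embryonic connective tissue, was at 571, 188, 60.3, 291 and 168 CPM in the blastemas and 26.6 to 42.8 CPM in the limbs (2.93, SE 0.49, edgeR adjusted p = 0.00257). MFAP2, which binds such microfibrils, was at 201, 124, 64.3, 110 and 68.5 CPM against 17.3 to 36.7 CPM (2.11, SE 0.35, edgeR adjusted p = 0.00275). LAMA1, a laminin chain of early embryonic basement membranes, was at 23.8, 32.6, 11.3, 37.9 and 22.4 CPM in blastema and 0.670 to 2.83 CPM in limb (3.90, SE 0.41, edgeR adjusted p = 0.000118). In these 3 genes blastema 5 was the lowest of the blastemas and still above every limb.

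The matrix list also held a gene of the new class. FREM1.1, a basement membrane protein of developing epithelium, had 7 counts over the limbs and stood at 0.979, 3.01, 2.33, 4.84 and 3.23 CPM in blastema (5.03, SE 0.81, edgeR adjusted p = 0.00203, and 5.94 without juvenile limb 8). LUM.1, a lumican of collagen fibrils, was at 1.57, 7.77, 3.97, 11.9 and 2.13 CPM against at most 0.612 CPM (4.58, SE 0.90, edgeR adjusted p = 0.00745, and 5.28 without juvenile limb 5). COL12A1, a collagen that links fibrils, was at 519, 288, 106, 425 and 136 CPM in blastema and 119, 86.1, 129, 95.9 and 91.7 CPM in limb. Blastema 5 lay among the limbs, and the call (1.5, SE 0.40, edgeR adjusted p = 0.0387) was lost in 13 of 23 alternatives, among them the block (0.0987) and the fits without blastema 2, 3 or 6, any 1 limb or animal 2, 3, 6 or 8 (up to 0.154). LAMB2, the laminin chain of mature basement membranes and of the neuromuscular junction, is not on the list and was lower, at 4.02, 13.2, 5.52, 11.1 and 0.514 CPM in blastema and 44.4, 19.3, 69.5, 24.5 and 63.5 CPM in limb (−2.67, SE 0.65, edgeR adjusted p = 0.0238). It lost its call with the block (0.0769) and without blastema 5, juvenile limb 2, 5 or 8 or animal 2 or 5 (up to 0.119).

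Enzymes that modify and fold collagen gave a mixed picture. Of 18 tested members 6 were called higher, at a median of 1.13, with 2 called with the block, 10 without blastema 8, 3 without juvenile limb 2, 2 without animal 2 or 3 and 1 without animal 6. None of the 7 named by the unselected table was called by edgeR or DESeq2 (0 at an unadjusted edgeR p under 0.05), and 5 of them were steady. P4HA1, a prolyl hydroxylase of collagen that low oxygen induces in mammals, was at 142, 144, 93.8, 121 and 74.2 CPM in blastema and 31.4 to 54.8 CPM in limb (1.39, SE 0.25, edgeR adjusted p = 0.00391), and this call held in all 23 alternatives that were run gene by gene. CALU, a calcium-binding protein of the secretory pathway, was at 167, 82.6, 42.2, 82.4 and 47.3 CPM against 25.1 to 37.9 CPM (1.47, SE 0.35, edgeR adjusted p = 0.0201) and lost its call with the block (0.07) and without juvenile limb 2 or animal 2, 3 or 6 (up to 0.0834). P3H4, a partner of collagen prolyl hydroxylation, gave 1.51 (SE 0.35, edgeR adjusted p = 0.0186), with blastema 8 (2.50 CPM) within the range of the limbs, and lost its call with the block (0.0674) and without animal 2, 3, 5 or 6 (up to 0.0956). FKBP10, a collagen chaperone, overlapped (1.06, SE 0.33, edgeR adjusted p = 0.0659, from 0.00758 to 0.22), and TMED2, a cargo receptor of the early secretory pathway, was steady (0.36, SE 0.22).

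Among 23 tested transcription factors of limb and progenitor cells 11 were called higher and 5 lower, the latter including the muscle factors above. All 11 that were higher are among the 18 named by the selected table, while of the 6 that the unselected table names, 1 of them named by both tables, none was called higher and 1 lower by edgeR or DESeq2 (1 at an unadjusted edgeR p under 0.05), at a median of −0.27. MSX2, a homeobox gene of limb bud mesenchyme and wound epidermis, was at 16.9, 42.8, 20.0, 31.0 and 23.3 CPM in blastema and 3.38, 5.80, 3.13, 5.42 and 3.41 CPM in limb (2.66, SE 0.30, edgeR adjusted p = 0.000201). Within animals its log2 ratio had an SD of only 0.227, and the animal with the highest limb level, 3, also had the highest blastema level. SALL4, a zinc finger factor of embryonic and stem cells, was at 21.6, 17.2, 6.14, 19.3 and 6.10 CPM in blastema and 0.450 to 1.25 CPM in limb (4.10, SE 0.47, edgeR adjusted p = 0.0002). MYCN, a proto-oncogene of embryonic progenitors, was at 7.54, 1.48, 1.24, 3.20 and 1.40 CPM against at most 0.321 CPM (4.46, SE 0.82, edgeR adjusted p = 0.0051), with 3.82 without blastema 2, 3.68 without animal 2, 5.07 without juvenile limb 8 and 5.25 without animal 8.

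Other factors were closer to the thresholds. ID3, an inhibitor of differentiation factors and a target of BMP signalling, was at 62.5, 57.2, 68.8, 60.2 and 47.7 CPM in blastema and 28.8, 34.1, 33.4, 26.2 and 20.4 CPM in limb (1.05, SE 0.19, edgeR adjusted p = 0.00418). The difference passed the test throughout but slipped to 0.99, below the fold threshold, without blastema 5 or juvenile limb 8. TWIST1, a factor of mesenchyme, was at 4.90, 1.08, 1.32, 1.19 and 1.84 CPM against 0.257 to 0.783 CPM (2.19, SE 0.57, edgeR adjusted p = 0.0338). It lost its call in 10 of 23 alternatives, namely the block (0.0542) and those without blastema 2, juvenile limb 3, 5, 6 or 8 or animal 3, 5, 6 or 8 (up to 0.107). LEF1, a nuclear effector of Wnt signalling, was at 9.99, 5.88, 1.17, 6.62 and 2.79 CPM against 0.514 to 1.74 CPM, with blastema 5 within the limbs (2.17, SE 0.56, edgeR adjusted p = 0.0329). It was called with the block (0.0157) and lost its call in 11 of 23 alternatives, without blastema 2, 3 or 6, juvenile limb 2, 3, 5 or 8 or animal 2, 3, 6 or 8 (up to 0.101). HIC2, a repressor, overlapped and was not called (−0.65, SE 0.30, edgeR adjusted p = 0.212, from 0.165 to 0.391).

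A mixed list of progenitor genes, for RNA-binding, retinoid and Wnt pathway proteins and PROD1, was higher in 7 of 9 tested members and lower in none, at a median of 1.93. All 9 are named by the selected table. The 7 were MSI1, MEX3A, MEX3B, TRIM71, CRABP2, APCDD1 and WLS. CRABP2, which carries retinoic acid to its nuclear receptors, was at 448, 214, 188, 300 and 206 CPM in the blastemas and 59.4, 64.1, 51.0, 63.5 and 53.3 CPM in the limbs (2.22, SE 0.27, edgeR adjusted p = 0.000272). TRIM71, an RNA-binding protein of early embryos that let-7 microRNAs restrain, was at 32.9, 8.80, 6.22, 14.3 and 14.1 CPM against 0.587 to 2.76 CPM (3.12, SE 0.53, edgeR adjusted p = 0.00283, and 2.41 without animal 2). APCDD1, a membrane inhibitor of Wnt signalling, was at 25.6, 50.8, 11.8, 54.8 and 29.0 CPM against 1.86 to 8.66 CPM (2.64, SE 0.48, edgeR adjusted p = 0.00436). WLS, which carries Wnt proteins to the cell surface, was at 32.9 to 87.2 CPM against 18.8 to 29.9 CPM (1.34, SE 0.29, edgeR adjusted p = 0.0131, and 0.0755 without animal 6). In all of these the blastemas lay above the limbs.

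Guidance receptors and contact molecules were higher in 5 of 8 tested members, at a median of 1.73. All 5 are among the 7 that the selected table names, while the 1 named by the unselected table was not called (−0.47). UNC5B, a netrin receptor of vessels and growing tissue, was at 41.3, 39.3, 23.9, 32.8 and 16.1 CPM in blastema and 6.55 to 12.2 CPM in limb (1.64, SE 0.28, edgeR adjusted p = 0.00293). CDH6, a cadherin of embryonic mesenchyme and epithelium, was at 22.1, 1.44, 4.36, 6.55 and 8.89 CPM against 1.03, 1.52, 0.272, 0.125 and 0.450 CPM (3.61, SE 0.77, edgeR adjusted p = 0.0117). In animal 3 the blastema was no higher than the limb. The fold was 2.97 without blastema 2 and 4.41 without animal 3, and the call was lost without animal 8 (0.0549). TMEFF1, a membrane protein that restrains Nodal signalling in frogs, was at 2.10 to 10.8 CPM against 0.884 to 1.41 CPM (2.24, SE 0.45, edgeR adjusted p = 0.00777). SEMA6A, a membrane semaphorin, was at 10.4 to 38.2 CPM against 4.42 to 8.81 CPM (1.74, SE 0.37, edgeR adjusted p = 0.0117) and lost its call with the block (0.0602) and without animal 3 or 6 (0.0565 and 0.0637).

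Oxygen-responsive genes were higher in 5 of 8 tested members, at a median of 1.75, among them P4HA1 and HMOX1, which other lists also hold. All 8 are named by the selected table. ANGPTL4, a secreted regulator of lipid uptake, was at 87.0, 34.0, 6.14, 39.5 and 22.8 CPM in blastema and 3.23 to 8.03 CPM in limb, with blastema 5 within the limbs (2.79, SE 0.55, edgeR adjusted p = 0.00743, and 2.08 without animal 2). EPAS1.1, the oxygen-sensed factor HIF-2 alpha, leaned the other way at 7.64, 29.0, 27.0, 25.7 and 48.4 CPM in blastema and 50.8 to 80.5 CPM in limb. Its groups did not overlap, but it was not called (−1.13, SE 0.37, edgeR adjusted p = 0.0812, from 0.00662 to 0.241 over the alternatives).

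SHD, an adaptor protein of tyrosine kinase signalling, was the other named gene of the new class. It had 7 counts over the limbs, in juvenile limbs 6 and 8, and stood at 6.37, 3.19, 1.32, 5.28 and 8.74 CPM in blastema (5.79, SE 0.90, edgeR adjusted p = 0.00166, and 6.68 without juvenile limb 8). The remaining 2 new genes had no gene name.

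**Figure D3:**
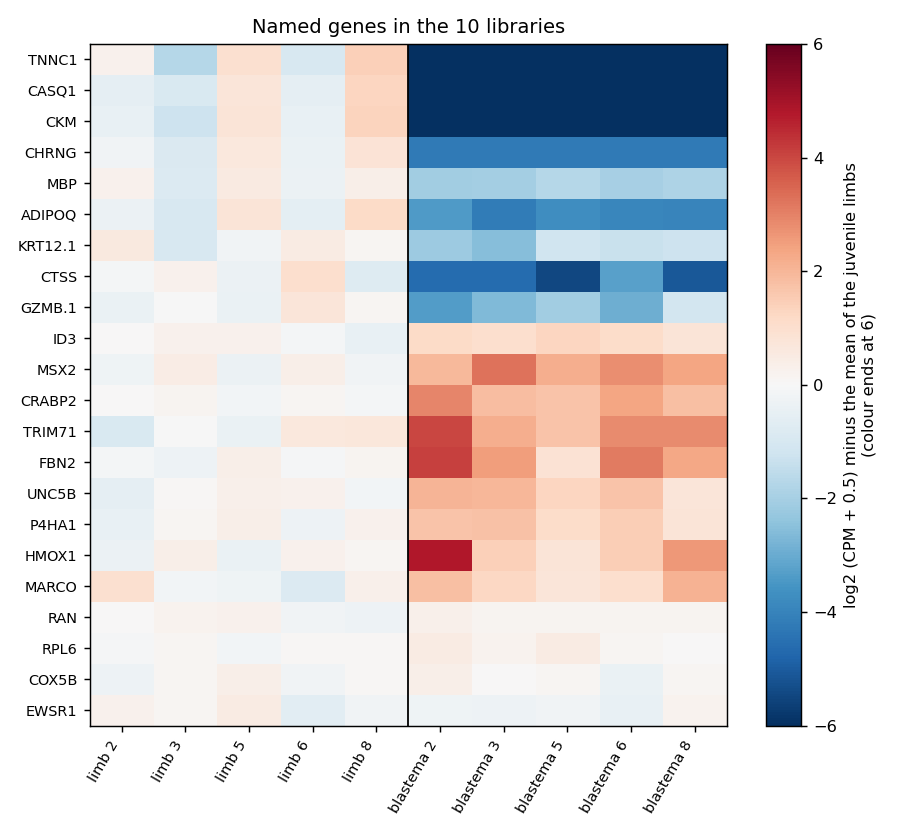
Heat map of 22 named genes (rows) in the 10 libraries (columns), as log2 of CPM + 0.5 minus the mean over the juvenile limbs, with the colour ending at 6 on both sides. TNNC1, CASQ1 and CKM pass the end of the scale in every blastema, MSX2, CRABP2 and TRIM71 are higher in every blastema, and RAN, RPL6 and COX5B keep close to 0.

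Few genes of general cell machinery were called, on lists named mostly by the unselected table, of whose genes 45.0% were steady against 35.1% of all tested genes. Of 11 tested splicing genes 10 were steady and none was called by edgeR or DESeq2 (3 at an unadjusted edgeR p under 0.05). Mitochondrial enzymes were steady in 12 of 14, at a median of −0.17, with none called by edgeR or DESeq2 (2 at an unadjusted edgeR p under 0.05). COX5B, a subunit of cytochrome oxidase, was at 179, 145, 153, 106 and 151 CPM in blastema and 114, 151, 181, 121 and 146 CPM in limb (0.04, SE 0.21). RAN, a GTPase of nuclear transport, was at 271, 241, 243, 245 and 242 CPM against 177 to 258 CPM (0.18, SE 0.18), and YBX1, an mRNA-binding protein, at 298 to 427 CPM against 260 to 455 CPM (0.10, SE 0.22). Ribosome and translation genes were steady in 7 of 17, between these shares, with RPL6 at 492 to 679 CPM against 427 to 534 CPM (0.27, SE 0.20). RPL3 and RPL3L were the members that fell, and NPM1.5 was the member that rose (1.21). No member was called higher with the edgeR block, without any 1 animal, without blastema 2 or without juvenile limb 2, 5 or 8. RPLP0, a ribosomal stalk protein, was unresolved (0.48, SE 0.25, edgeR adjusted p = 0.261, from 0.207 to 0.557).

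The list of DNA replication and mitosis had 3 of 19 tested members called higher, 7 steady and none lower, at a median of 0.16. The 3 were the tubulins TUBA1B and TUBA1C.1 and the nucleoside kinase UCK2, and none of the 14 named by the unselected table was called by edgeR or DESeq2 (3 at an unadjusted edgeR p under 0.05). TUBA1C.1 was at 472, 458, 304, 244 and 174 CPM in blastema and 82.3 to 139 CPM in limb (1.62, SE 0.30, edgeR adjusted p = 0.00513). TUBA1B was at 256 to 882 CPM against 142 to 233 CPM (1.40, SE 0.34, edgeR adjusted p = 0.0223) and lost its call with the block (0.075) and without juvenile limb 2 or animal 2, 3 or 5 (up to 0.087). UCK2, which salvages uridine and cytidine, was at 49.2, 33.8, 73.3, 26.6 and 48.1 CPM against 14.1 to 23.8 CPM (1.40, SE 0.28, edgeR adjusted p = 0.00743). Tubulins serve the cytoskeleton of all cells. In the main fit the helicase factor CDC45 was steady (0.30) and the replication clamp partner PCLAF was unresolved (1.01). DESeq2 called 5 members higher, PCLAF among them, and these were the 5 that the selected table names. The edgeR fit without blastema 3 called 2 members lower.

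Chromatin cofactors were steady in 10 of 17 and called higher in 2. The called genes were CECR2, a bromodomain protein (1.42, SE 0.34, edgeR adjusted p = 0.0201), and SAP30, of a histone deacetylase complex (1.02, SE 0.22, edgeR adjusted p = 0.0119). CECR2 was at 12.8 to 21.2 CPM against 2.57 to 10.1 CPM and lost its call without juvenile limb 5 or animal 3, 5, 6 or 8 (0.0529 to 0.0789). SAP30 fell below the fold threshold, to 0.75 at the lowest, without blastema 2, juvenile limb 2 or animal 2, and marginally with library totals that leave out the 100 highest genes. SMARCB1, a core subunit of the SWI/SNF remodelling complex, was among the most even of the differences named here. It was at 39.3, 38.1, 31.3, 38.3 and 30.6 CPM in blastema and 19.7, 20.2, 19.2, 20.1 and 16.9 CPM in limb, with an SD of the paired log2 ratio of 0.109. The groups did not overlap and the test passed, but the change was below the fold threshold (0.89, SE 0.15, edgeR adjusted p = 0.00351). Genes of cilia were tested in 5 of 12 cases, of which only LRRC43, a gene of motile cilia, was called, as lost (−5.38, SE 1.04, edgeR adjusted p = 0.00665, −8.58 without blastema 2, −8.67 without animal 2 and −4.74 without animal 8). All 4 blastema counts of LRRC43 were in blastema 2.

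Among called genes the change was uniform in direction and less so in size. Of the called lower genes 1090 (97.6%) were lower in all 5 animals, and of the called higher genes 335 (90.3%) were higher in all 5, whereas 24.3% of all tested genes had 1 direction in the 5 animals. The groups did not overlap in 988 of the lower and 272 of the higher genes, against 10.6% of all tested genes. All 298 lost genes are in both counts of the lower genes. The filter keeps a gene that is near 0 in every blastema only where all 5 limbs pass its cutoff. The uniformity of such genes is therefore built in. The median log2 ratio within an animal, with 0.5 CPM added on both sides, was 1.84, 1.5, 1.38, 1.49 and 1.31 over the raised genes and −2.37, −1.83, −2.75, −2.16 and −2.70 over the genes called lower. The ratios of genes near 0 in blastema follow the limb level and the offset. As these genes were called on the same 5 animals, these counts and medians describe the calls and do not test them.

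Leaving each animal out gave values that the calls had not used, although their CPM were scaled together with the other libraries. Of the genes called higher in the other 4 animals, 89.1%, 92.9%, 86.3%, 91.9% and 90.7% were higher in the animal left out, where 46.2% to 47.7% of all tested genes were higher. Of the genes called lower, 89.1%, 94.5%, 96.9%, 97.1% and 96.7% were lower. The share of genes called in 4 animals was 6.79%, 6.5%, 5.01%, 5.45% and 5.67%. The median paired log2 ratio in the animal left out, with 0.5 CPM added on both sides, was 1.40, 1.16, 1.16, 1.06 and 1.10 over the genes called higher. For the lower genes it was −2.13, −1.67, −3.20, −2.32 and −2.97. Over all genes tested it was −0.11, −0.04, −0.08, −0.05 and −0.04.

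**Figure D4:**
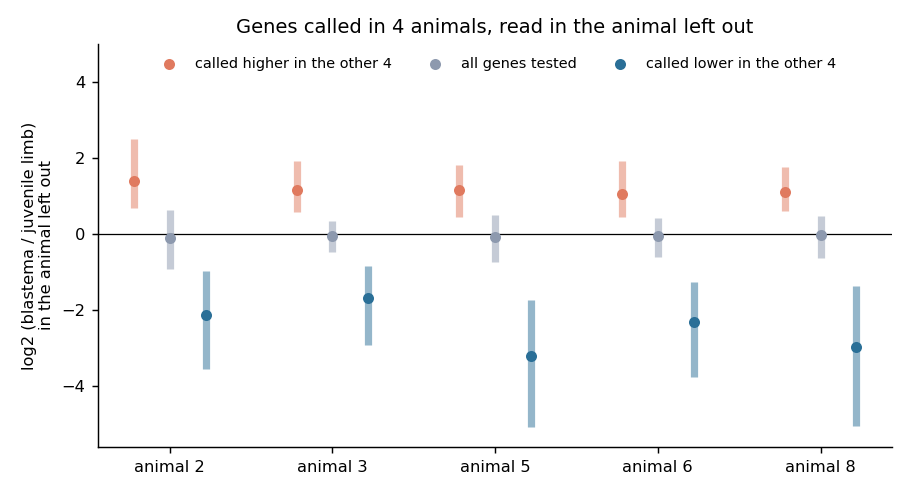
Log2 ratio of blastema to limb in the animal left out, as median (point) and interquartile range (bar), for genes called higher or lower in the other 4 animals and for all genes tested. The medians lie between 1.06 and 1.40 for the higher genes and between −3.20 and −1.67 for the lower genes in all 5 animals.

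The lists were also read in each animal. For genes near 0 in blastema, as many on the sarcomere list, the paired log2 ratio follows the limb level and the offset. The median paired log2 ratio of the sarcomere list ran from −9.05 in animal 5 to −7.01 in animal 3, and that of the mixed progenitor list from 1.25 to 1.73. In the skin list it ran from −3.17 in animal 2 to −1.16 in animal 8, and in the matrix list from 1.30 in animal 8 to 2.76 in animal 3. The antiviral list changed sign between animals, with −2.30, −0.34, −1.32, 0.17 and −0.89.

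Some single called genes also varied widely between animals. MMP13.1, a collagenase, was at 1467, 442, 107, 325 and 32.2 CPM in blastema and 5.48, 31.9, 32.6, 23.9 and 3.86 CPM in limb, with an SD of the paired log2 ratio of 2.35. Its log2 fold change was 4.60 (SE 1.00, edgeR adjusted p = 0.0131), 3.59 without blastema 2, 3.29 without animal 2 and 3.82 with the block, and the call was lost without animal 6 (0.052). SULF1, which trims heparan sulfate, was at 25, 87.8, 6.14, 108 and 31.6 CPM against 8.56, 8.08, 18.5, 6.48 and 13.3 CPM, so that in animal 5 the blastema was the lower of the pair. Its call (2.24, SE 0.63, edgeR adjusted p = 0.0454) was lost in 12 of 23 alternatives, namely the block (0.196), the fits without blastema 3 or 6, any 1 limb, and those without animal 2, 3, 6 or 8. At the other end, PRCP, a lysosomal peptidase, was at 81.3, 99, 60.4, 82.2 and 66.6 CPM against 33.6, 47.2, 28.5, 46.3 and 24.6 CPM (1.11, SE 0.23, edgeR adjusted p = 0.0106), with an SD of the paired log2 ratio of 0.226, close to that of MSX2 and of ID3 (0.189).

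**Figure D5:**
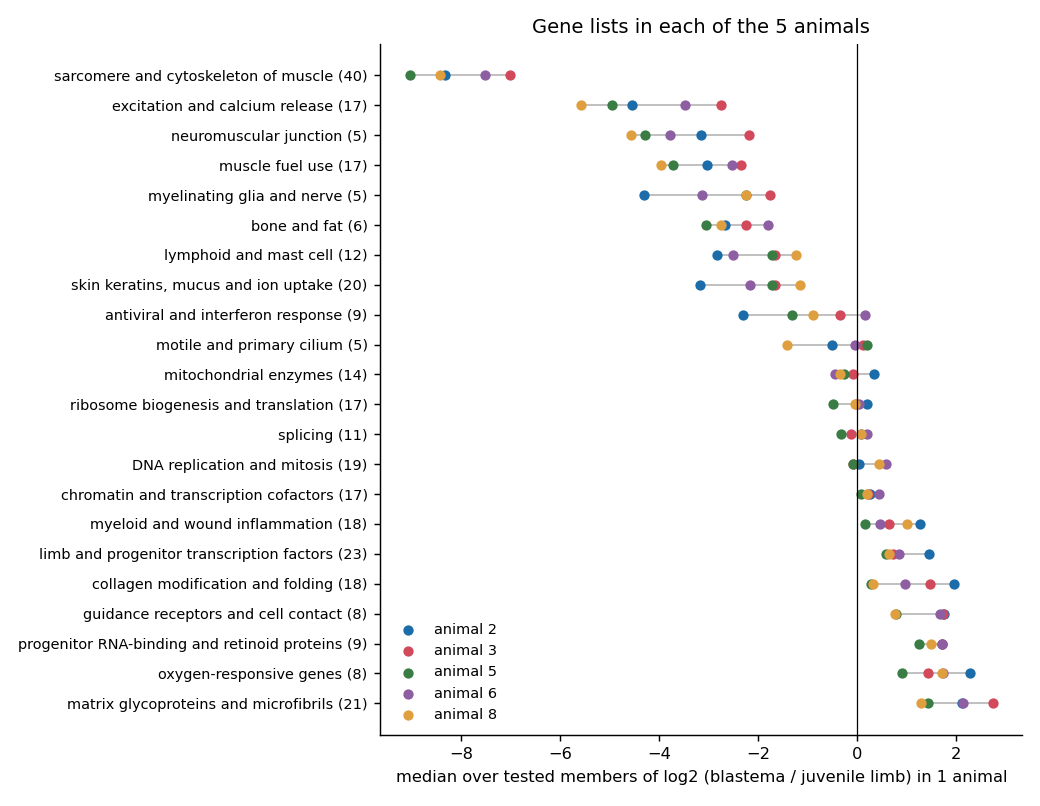
Median log2 ratio of blastema to limb over the tested members of each gene list (their number in brackets), with 1 point per animal. The muscle lists lie far below 0 in every animal, the matrix list lies between 1.30 and 2.76, and the splicing and mitochondrial lists lie around 0.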

How the data were processed

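RNA was sequenced after depletion of ribosomal RNA with Ribo-Zero Gold, in stranded paired-end libraries (SMARTer Stranded V2). The authors trimmed reads with Trimmomatic 0.39, aligned them to AmexG_v6.0-DD with STAR 2.7.9a and ran featureCounts with the AmexT_v47 annotation. The deposited values are whole-number counts per gene, without normalization. The featureCounts settings for strand, several matches and overlapping genes are not given in the sources used here, so near-identical, overlapping and antisense genes are uncertain.

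The 5 blastemas and 5 juvenile limbs were fitted with edgeR 4.0.16 in R 4.3.3 (TMM, filterByExpr, quasi-likelihood F test, Benjamini-Hochberg adjustment over all genes tested). The standard error is the log2 fold change divided by the square root of F. Genes below the filter were compared by an exact permutation test on log2(CPM + 0.05), which treats the libraries as unpaired. Paired log2 ratios used an offset of 0.5 CPM. Same-numbered libraries were taken as 1 animal, which the methods do not state, and their deviations from the group means had a median correlation of 0.144 (−0.000459 to 0.212 over 5 pairs) against −0.010 over the 20 pairs of different animals. The main fit has no replicate block, and the block was an alternative, as were DESeq2 1.42.0, other scaling, filters and thresholds, all 12 libraries, and each library or animal left out. The fits were tested on simulated data. The main test differs from the DESeq2 test of the study. The 2 aged limb libraries entered no comparison.

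The supporting tables pair 1585 of 1924 identifiers with a gene name, 988 of them in the table of genes the study selected. Genes named are, in each list, the 2 called members of largest change and the 2 of highest level, in each level class the 3 named genes of highest level, the limb identity genes TBX4, TBX5 and PROD1, and the 3 called genes of largest and of smallest paired spread at 5 CPM or more. MSX2, TWIST1, SALL4, MYCN, LEF1, MARCO, C5AR1, IL11, ADIPOQ, LAMA1, CPA3, IFITM5.1, MBP and MFAP2 were added after their values were seen. Not every gene the rule takes is described. All members and lists were chosen with earlier results of these data known. The p-values of the main edgeR fit rest on the spread between the libraries of these animals within each group. That fit takes the 10 libraries as unpaired and does not use the pairing by animal. Some items are not reported here.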

Additional observations from a re-analysis of the deposited data

Results flagged for a closer look

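In 226 groups of 5 libraries, 1 library lay far from the other 4 in 19 cases, where chance gives about 1 in 20 for values with a normal spread, which the CPM of these genes need not have. Of the 19, 9 were blastema 2. Blastema 2 was above the other blastemas for CTSK (568 CPM against 68.6 to 151), HMOX1 (101 against 5.68 to 21.7), MMP13.1 (1467 against 32.2 to 442), IL11 (43.6 against 0.156 to 10.6) and TWIST1 (4.90 against 1.08 to 1.84). It was also above them for CECR2 (21.2 CPM against 12.8 to 14.8), ACTC1.4 (1.86 against 0.156 to 0.539), RAN (271 against 241 to 245) and SNRPD3 (96.2 against 54.2 to 65.8).

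Blastema 8 was above the other blastemas for MYH2.1 (22.3 CPM against 1.08 to 2.18) and PRPH.1 (178 against 8.32 to 39.0). Blastema 6 was above them for CTSS (6.55 CPM against 1.01 to 2.25) and KRT19.2 (18.2 against 4.36 to 8.01).

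Among the limbs, juvenile limb 3 was above the others for PROD1 (17.1 CPM against 1.93 to 5.72) and WLS (29.9 against 18.8 to 20.3). Juvenile limb 8 was above them for TBX5 (9.07 CPM against 3.47 to 4.80) and below them for SMARCB1 (16.9 against 19.2 to 20.2). Juvenile limb 2 held most of the IGLV.1 counts (4.65 CPM against 0 to 0.893), and juvenile limb 6 held counts for 46501 genes against 33236 to 36603.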

How the results depend on the processing

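The main setting called 371 genes higher and 1117 lower. DESeq2 called 682 and 2014, and 705 and 2295 with the replicate block. Without a filter on low counts the numbers were 981 and 2279, and with the test set against a change of 1 log2 unit they were 76 and 616. Of the 1488 calls, DESeq2 shared 1482. Leaving out 1 library or 1 animal gave 230 to 402 higher and 782 to 1405 lower genes. The edgeR fit with the replicate block called 301 and 1093, 1197 of them among the main calls. The block took away the calls of ALDOA, CALU, P3H4, COL12A1, HMOX1, SEMA6A, SULF1, TUBA1B, LAMB2, VDR, C5AR1 and TWIST1 and gave one to FCGBP.8, FCGBP.9 and PRPH.1. Among the genes followed gene by gene it changed no other call. Outside these, NPM1.5 lost its call. Over whole lists, matrix genes called higher numbered 14 with the block against 18 without. Collagen enzymes called higher numbered 2 against 6, myeloid and wound genes 3 against 6, and chromatin cofactors 3 against 2. Genes called lower numbered 16 against 11 on the skin list and 5 against 3 on the glia and nerve list. The mixed progenitor list had 6 members called higher with the block against 7 without. TRIM71, CRABP2, APCDD1 and WLS kept their calls, so the loss lies among MSI1, MEX3A and MEX3B.

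Lost genes (298) numbered 524 without the filter, 449 with DESeq2 and the block, 518 with the limit for off at 0.5 CPM, and 285 to 450 with a library or animal left out. The 4 new genes became 24 with DESeq2, 21 with DESeq2 and the block, 12 with a mean of at least 10 counts, 16 on all 12 libraries, 0 with library totals without the 100 highest genes, 28 without the filter, 26 with the limit for off at 0.5 CPM, and 3 to 12 with a library or animal left out. Steady genes (7006) numbered 1468 with a margin of 1.5-fold. Called genes of 1 direction in all 5 animals (1425) numbered 2273 with DESeq2, 2410 with DESeq2 and the block, and 2239 without the filter. The filter setting changes how many genes enter the test (63474 without it against 19961). Library totals without the 100 highest genes change the scale of CPM while the limits for off and on stay fixed. The cause of the other shifts was not tested.

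Of 75 called genes among the 101 named in the fit, 51 kept their call in the alternatives run gene by gene (up to 23, without the test against 1 log2 unit), 24 lost it in at least 1, and no direction reversed. Scaling moved the median log2 fold change of all genes by less than 0.1. With 5 against 5 libraries shuffled as unpaired, no exact permutation p can fall below 0.00794. Counts of a few reads per library limit the lost and new classes.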

Other observations

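Some genes that only the unselected table names were called. ACACB.1 and ACACB.2, copies of the acetyl-CoA carboxylase that regulates fat burning in muscle, had means of 1.28 and 1.13 CPM in blastema and 5.74 and 4.56 CPM in limb (log2 fold changes −2.16, SE 0.45, edgeR adjusted p = 0.0106, and −2.03, SE 0.48, edgeR adjusted p = 0.02). CAMKK2, a calcium-dependent kinase upstream of AMPK, had means of 0.345 and 2.77 CPM (−2.94, SE 0.76, edgeR adjusted p = 0.0318). The gene named PSAP, the precursor of lysosomal saposins, had means of 1.18 and 11.7 CPM (−3.30, SE 0.56, edgeR adjusted p = 0.00283). GGT5.1, which breaks down glutathione conjugates, had means of 1.82 and 7.23 CPM in blastema and limb (−1.98, SE 0.33, edgeR adjusted p = 0.00253).

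RFLNA, an actin-binding protein of cartilage that acts with filamin in mice, was called higher, with means of 116 CPM in blastema and 39.7 CPM in limb (1.54, SE 0.27, edgeR adjusted p = 0.00379). These genes were singled out after their values were seen.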
